A study of Mus musculus with 2 samples.

Results

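The genes described here are 9 members of the major histocompatibility complex (MHC) class I pathway of the mouse: the heavy chains H2-K1 and H2-D1, the light chain B2m, the transporter subunits Tap1 and Tap2, the loading factor Tapbp, and the immunoproteasome subunits Psmb8, Psmb9 and Psmb10. They were chosen by symbol, and all 9 were found among the 15239 genes of the deposited table. Messenger RNA had been sequenced from mouse mammary basal cells in 2 libraries. One library carried a scrambled short hairpin RNA, named Scramble control, and the other carried a short hairpin RNA against Cdk14, a cyclin-dependent kinase, named Cdk14-sh. The labels give the tissue as normal mammary gland, and the strain, age, hairpin sequence and way of delivery are not given in the sources used here. Labels for the material conflict, giving it as mouse mammary basal cells for the samples, as MDA-MB-231 (a cell line of human breast cancer) in the design text, and as retinas in the protocol for extraction. Identifiers in the table are mouse genes, so the labels of the samples were followed.

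With 1 library per group there is no replicate check of any difference, and no p-value is given. Values are FPKM, the fragments of a gene scaled to the length of its exons and to the depth of the library. Levels of different genes can be set side by side only as far as the exonic length assigned to each gene holds. Depth was nearly equal, at 10186924 reads in Scramble control and 10177185 reads in Cdk14-sh. Ranges in parentheses are 95% intervals that cover counting error alone, so they set 1 library against the other and not the conditions. Cdk14 itself stood at 2.06 FPKM in Scramble control and 0.713 FPKM in Cdk14-sh, which is 2.90-fold lower (2.19 to 3.87). The basal markers Krt5 and Krt14, keratins of that cell layer, were at 129 and 1199 FPKM in Scramble control and at 242 and 994 FPKM in Cdk14-sh. Luminal keratins were abundant too, with Krt8 at 456 and 223 FPKM. In bulk RNA, fewer cells of a type and less RNA per cell cannot be told apart.

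MHC class I molecules show peptides from inside the cell to CD8 T cells. The proteasome cuts proteins into peptides, Tap1 and Tap2 carry them into the endoplasmic reticulum, and Tapbp (tapasin) holds the empty heavy chain and B2m at the transporter until a peptide is bound. Interferon gamma induces most of these genes, and it exchanges the catalytic proteasome subunits Psmb5, Psmb6 and Psmb7 for Psmb8, Psmb9 and Psmb10. Many class I pathway promoters carry an enhanceosome of NF-kB sites, an interferon response element, an X2 box bound by CREB and ATF factors, and a Y box bound by NF-Y.

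Promoter sequence is shown for 5 genes because they share a set of such motifs while their levels differ widely. The stretches are from RefSeq on GRCm38.p6, printed 5′ to 3′, and capitals mark motif matches on either strand. The motifs were the pair GGG and CC with 5 bases between (NF-kB), TGACG (X2 box or CRE), CCAAT (Y box, seen as ATTGG on the other strand), and GAAA repeated after 2 bases (interferon response element). The H2-K1 stretch is chr17:34000349-34000478 on the minus strand, the H2-D1 stretch chr17:35262903-35263032 on the plus strand, and the B2m stretch chr2:122147519-122147648 on the plus strand. Tap1 and Psmb9 are read in opposite directions from starts 225 bases apart, and their shared stretch is chr17:34187306-34187580 on the plus strand.
H2-K1: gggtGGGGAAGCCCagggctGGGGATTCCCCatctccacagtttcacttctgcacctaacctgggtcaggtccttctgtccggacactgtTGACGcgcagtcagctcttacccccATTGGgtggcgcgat
H2-D1: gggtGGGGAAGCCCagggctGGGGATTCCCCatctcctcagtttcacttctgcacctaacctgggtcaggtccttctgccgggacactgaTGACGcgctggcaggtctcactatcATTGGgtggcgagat
B2m: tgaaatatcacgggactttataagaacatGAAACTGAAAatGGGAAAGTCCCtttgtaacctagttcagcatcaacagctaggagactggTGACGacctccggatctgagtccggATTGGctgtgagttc
Tap1 and Psmb9: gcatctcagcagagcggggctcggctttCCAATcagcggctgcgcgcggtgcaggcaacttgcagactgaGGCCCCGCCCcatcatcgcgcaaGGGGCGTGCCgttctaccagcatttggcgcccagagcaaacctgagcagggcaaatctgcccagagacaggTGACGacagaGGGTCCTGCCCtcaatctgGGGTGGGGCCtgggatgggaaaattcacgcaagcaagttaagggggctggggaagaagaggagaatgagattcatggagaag

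The H2-K1 and H2-D1 stretches were identical at 118 of 130 bases, a share of 90.8%. In H2-K1, H2-D1 and B2m, which were aligned on TGACG, the Y box began at the same distance after it. The B2m stretch holds a match to the interferon response element pattern beside an NF-kB match. NF-kB, X2 and Y box matches occurred together in 5 of the 8 members with a promoter in the table, namely H2-K1, H2-D1, B2m, Tap1 and Psmb9. These 5 are not independent sequences, since Tap1 and Psmb9 share their stretch and those of H2-K1 and H2-D1 are largely identical. Of all 32851 promoter windows, from 250 bases before to 50 after the start, 4.46% held the 3 together. Taken singly, 50.8% of all windows held the NF-kB pattern, 20.8% TGACG and 37.4% CCAAT. The exact letters of the interferon response element pattern were in 3.44% of windows and, of the members, in B2m. Inexact forms were not searched, so a window without a match, such as that of H2-K1 or H2-D1, may still hold such an element. The GAS pattern, TTC and GAA with 3 bases between, was in 8.3% of windows and, of the members, in Psmb8. Tapbp held a Y box match alone, and the Psmb10 window held none of these letters. A match describes the sequence and is not a binding site.

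The class I chains and Tapbp were abundant in both libraries, while the transporter and immunoproteasome genes were low. In Scramble control the order from high to low was B2m, H2-D1, H2-K1, Tapbp, Tap2, Tap1, Psmb8, Psmb10 and Psmb9. B2m ranked 32 among all listed genes there and Psmb9 ranked 14461. In Cdk14-sh the same 4 genes led in the same order, and Psmb9 was again lowest. By FPKM, Tap1 and Tap2 did not differ beyond counting error in either library. The Tap1 to Tap2 ratio was 0.933 (0.755 to 1.15) in Scramble control and 0.902 (0.754 to 1.08) in Cdk14-sh. In Cdk14-sh, Psmb8 and Psmb10 reached the FPKM of the transporter genes, and the neighbours in the order could not be separated by counting error. There the ratio of Tap2 to Psmb8 was 1.03 (0.846 to 1.26), that of Psmb8 to Psmb10 was 1.04 (0.805 to 1.35) and that of Psmb10 to Tap1 was 1.03 (0.808 to 1.31). In Scramble control, Psmb10 stood at 0.425 of Tap1 (0.276 to 0.632). Counting intervals do not cover the choice of length, on which ratios between genes, and with them the order, can depend. The exonic lengths used were 5476 bases for Tap1, 3781 for Tap2 and 3381 for Psmb8. Their main coding transcripts had 2953, 3442 and 1628 bases, and these ratios were not recalculated with them.

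**Figure D1:**
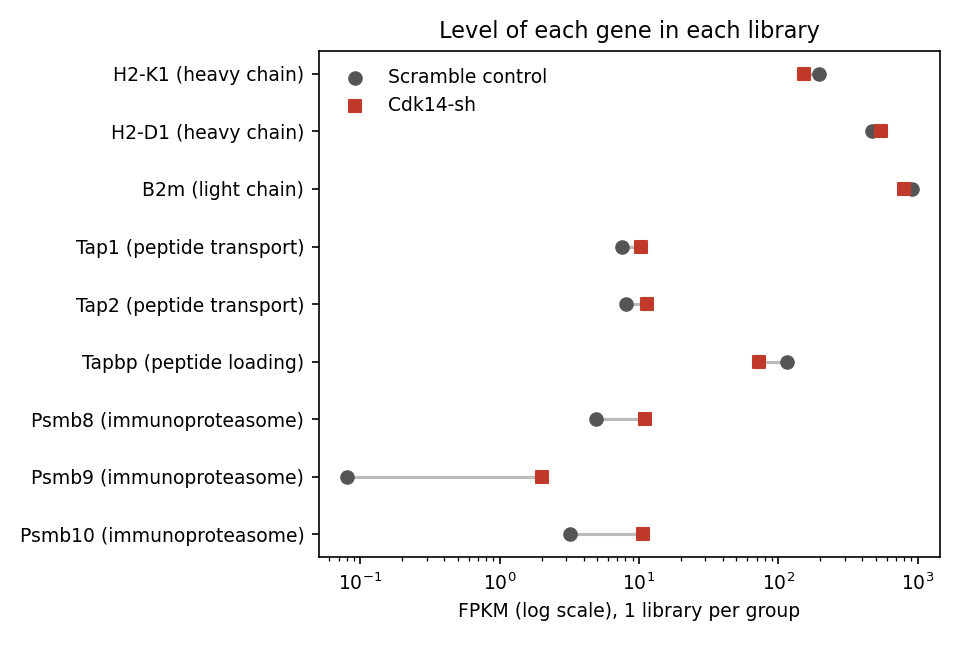
FPKM of each of the 9 genes on a log axis, with 1 library per group; grey circles are Scramble control and red squares are Cdk14-sh, joined by a line. The class I chains and Tapbp lie between 72.3 and 903 FPKM with short lines, and the longest line is that of Psmb9, from 0.0805 to 2.001 FPKM.

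The immunoproteasome subunits were the members with the largest differences, and all were higher in Cdk14-sh. Psmb8, the chymotrypsin-like subunit also known as LMP7, measured 4.90 FPKM in Scramble control and 11.0 FPKM in Cdk14-sh. It was 2.25-fold higher (1.73 to 2.94), from 169 and 379 recovered reads. Psmb10, the trypsin-like subunit also known as MECL-1, measured 3.22 FPKM in Scramble control and 10.6 FPKM in Cdk14-sh. It was 3.29-fold higher (2.13 to 5.22), from 56 and 184 reads. Psmb9, also known as LMP2, measured 0.0805 FPKM in Scramble control and 2.001 FPKM in Cdk14-sh. Its ratio of 24.9 has the wide interval of 5.44 to 356, because Scramble control held 3 reads against 74.5 in Cdk14-sh. With a mean of 1.04 FPKM, Psmb9 passed the limit of a mean of 1 FPKM only through Cdk14-sh. Summed over the subunits, the level was 8.20 FPKM in Scramble control and 23.6 FPKM in Cdk14-sh.

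Set against the constitutive subunits they replace, the immunosubunits were at lower FPKM, except that the interval of Psmb10 in Cdk14-sh reached the level of Psmb7. The constitutive Psmb5 measured 32.0 FPKM in Scramble control and 49.0 FPKM in Cdk14-sh, a fold of 1.53 (1.24 to 1.90). Psmb6 measured 123 FPKM in Scramble control and 174 FPKM in Cdk14-sh, a fold of 1.41 (1.31 to 1.53). Psmb7 measured 13.2 FPKM in both libraries, a fold of 1.00 (0.831 to 1.21). Psmb5 and Psmb6 were thus also higher in Cdk14-sh, by less than their partners. Psmb8 stood at 15.3% of Psmb5 in Scramble control (11.6 to 20.1) and at 22.5% in Cdk14-sh (18.4 to 27.4). Psmb9 stood at 0.0655% of Psmb6 in Scramble control (0.00471 to 0.281) and at 1.15% in Cdk14-sh (0.809 to 1.59). Psmb10 stood at 24.5% of Psmb7 in Scramble control (15.9 to 36.4) and at 80.4% in Cdk14-sh (62.5 to 103). The Psmb8 intervals of the libraries overlap and those of the other pairs do not. The summed immunosubunits were 4.88% of the summed constitutive subunits in Scramble control and 10.0% in Cdk14-sh. These percentages depend on the exonic length assigned to each gene: with the length of the main coding transcript, chosen after seeing the data, Psmb8 was 31.8% and 46.7% of Psmb5, and Psmb10 was 10.8% and 35.5% of Psmb7. Of the 50-base stretches of the Psmb5 transcript, 57.1% also occur in other genes, among them the pseudogene Psmb5-ps, so its level is uncertain. No such stretch of Psmb8, Psmb9, Psmb10 or Psmb7 was shared.

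**Figure D2:**
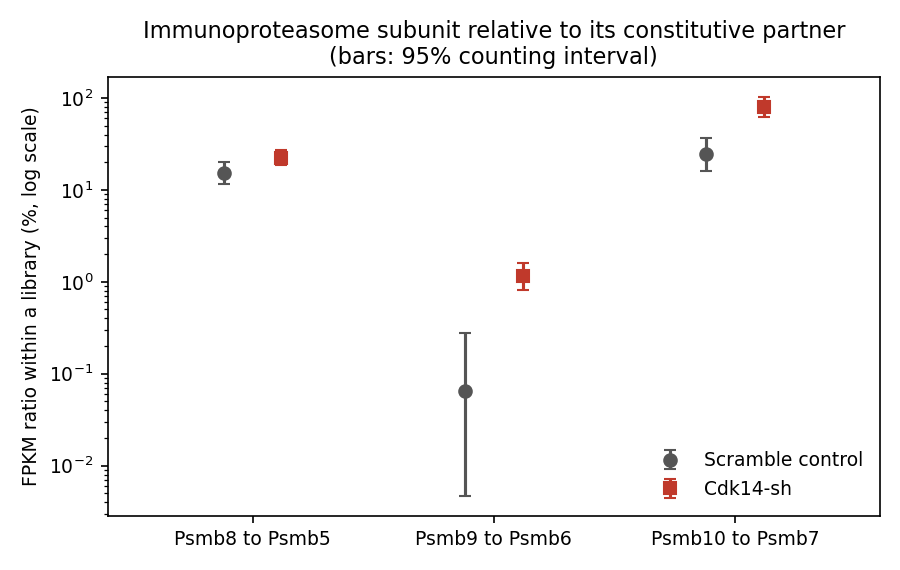
FPKM of each immunoproteasome subunit as a percentage of the constitutive subunit it replaces, within each library, on a log axis; bars are 95% counting intervals. All 3 pairs are higher in Cdk14-sh, with overlapping intervals for Psmb8 to Psmb5 at 15.3% and 22.5%.

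The heavy chains differed in opposite directions. H2-K1 measured 197 FPKM in Scramble control and 154 FPKM in Cdk14-sh. It was 1.28-fold lower in Cdk14-sh (1.21 to 1.35). H2-D1 measured 472 FPKM in Scramble control and 541 FPKM in Cdk14-sh. It was 1.15-fold higher in Cdk14-sh (1.11 to 1.19). Their sum was close to level, at 669 FPKM in Scramble control and 695 FPKM in Cdk14-sh. The ratio of H2-D1 to H2-K1 was 2.40 in Scramble control (2.30 to 2.51) and 3.52 in Cdk14-sh (3.35 to 3.69). Class I genes share sequence, and the sources used here do not say how shared reads were assigned. Of the 50-base stretches of the main transcripts, 8.79% in H2-K1 and 14.3% in H2-D1 occur in other genes, among them each other and members of the H2-Q and H2-T families. At 100 bases no stretch of H2-K1 and 4.64% of those of H2-D1 were shared, so both levels are uncertain to that extent.

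B2m, the light chain that every classical class I molecule needs at the surface, was the most abundant member. It measured 903 FPKM in Scramble control and 804 FPKM in Cdk14-sh, which is 1.12-fold lower (1.07 to 1.18). Its sequence was not shared with other genes at 50 bases. By FPKM, B2m stood at 1.35 times the summed heavy chains in Scramble control and at 1.16 times in Cdk14-sh. These ratios depend on the exonic length assigned to each gene.

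Both transporter subunits were moderately higher in Cdk14-sh, and Tapbp was lower. Tap1, which with Tap2 forms the peptide pump, measured 7.58 FPKM in Scramble control and 10.3 FPKM in Cdk14-sh, a fold of 1.35 (1.13 to 1.62). Tap2 measured 8.13 FPKM in Scramble control and 11.4 FPKM in Cdk14-sh, a fold of 1.40 (1.13 to 1.73). By FPKM, the pair stayed close to even in both libraries, which depends on the exonic lengths assigned. Tapbp measured 115 FPKM in Scramble control and 72.3 FPKM in Cdk14-sh, which is 1.59-fold lower (1.48 to 1.70). The excess of Tapbp over Tap1 in FPKM was 15.2-fold in Scramble control (13.2 to 17.5) and 7.05-fold in Cdk14-sh (6.20 to 8.04). Part of these exons overlaps other genes. Genes on the opposite strand cover 24.9% of Tapbp's exonic bases, 18.5% of Tap2's, 14.7% of Psmb8's, 5.79% of Psmb9's and 3.87% of Tap1's, the last 2 being each other's partner. The sources used here do not give the use of strand in counting.

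On the genome, GRCm38, 7 members lie on chromosome 17 within the MHC, from Tapbp at chr17:33915899-33929292 to H2-D1 at chr17:35262730-35267499. Psmb9 at chr17:34181987-34187764, Tap1 at chr17:34187553-34197225, Psmb8 at chr17:34197721-34201454 and Tap2 at chr17:34203527-34216321 follow each other in one cluster. H2-K1 lies at chr17:33996017-34000347. B2m is on chromosome 2 at chr2:122147686-122153083 and Psmb10 on chromosome 8 at chr8:105935735-105938444. The 4 genes of the cluster were all higher in Cdk14-sh, and so was Psmb10 outside the MHC. Tapbp and H2-K1, at one end of the stretch, were lower, and H2-D1, at the other end, was higher.

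**Figure D3:**
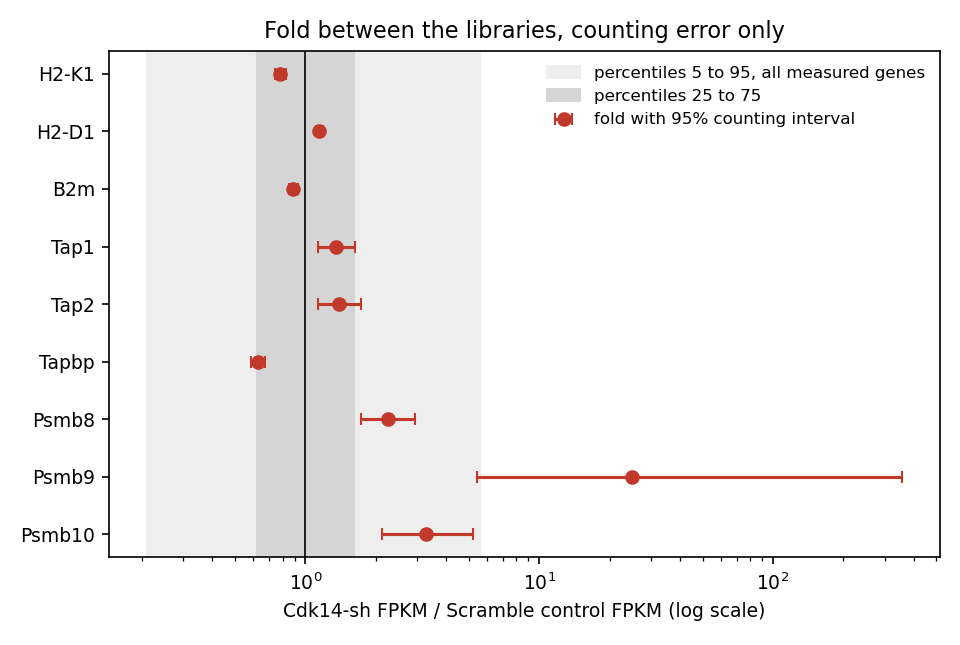
Ratio of Cdk14-sh to Scramble control FPKM for each gene on a log axis, with bars for the 95% counting interval and shading for percentiles 5 to 95 (0.211 to 5.61) and 25 to 75 (0.622 to 1.62) of all measured genes. H2-K1, H2-D1, B2m, Tap1, Tap2 and Tapbp lie within the inner shading, Psmb8 and Psmb10 in the outer shading, and Psmb9 beyond it.

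The differences were read against those of all genes on the log2 scale, with 1 FPKM added to each value, which understates the difference of low genes. On that scale the members ran from -0.66 for Tapbp to 1.47 for Psmb9, with 1.46 for Psmb10, 1.03 for Psmb8, 0.44 for Tap2, 0.39 for Tap1, 0.20 for H2-D1, -0.17 for B2m and -0.35 for H2-K1. Their median was 0.39, and that of all 12830 measured genes (mean of 1 FPKM or more) was 0.02 with an SD of 1.02. At least 2-fold higher (a log2 ratio of at least 1) were 3 of the 9 members, Psmb8, Psmb9 and Psmb10, against 14.2% of all measured genes. Psmb9 passed the limit of a mean of 1 FPKM only through Cdk14-sh, so its place in this count and in the order given below is no support. Of the 434 measured genes with up to 4 reads in Scramble control, 321 were at least 2-fold higher. None of the members was at least 2-fold lower, against 13.5% of all measured genes. With the limit raised to a mean of 5 FPKM, 11.7% of genes passed 2-fold as higher and 11.3% as lower. Psmb8 and Psmb10 stood under 5 FPKM in Scramble control and passed that limit only through Cdk14-sh, so their place above 2-fold there is no support. Among genes of at least 50 FPKM, a limit chosen after seeing the data for the range of H2-K1, H2-D1, B2m and Tapbp, the shares were 6.23% higher and 7.95% lower, and none of these 4 members passed in either direction. Counting intervals of the fold lay above 1 for 6 members, against 35.8% of all genes, and below 1 for 3 members, against 33.2%. Most measured genes thus had an interval that left out 1. In order of the log2 ratio from the highest, Psmb9 came at 918, Psmb10 at 945 and Psmb8 at 1761 of 12830.

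**Figure D4:**
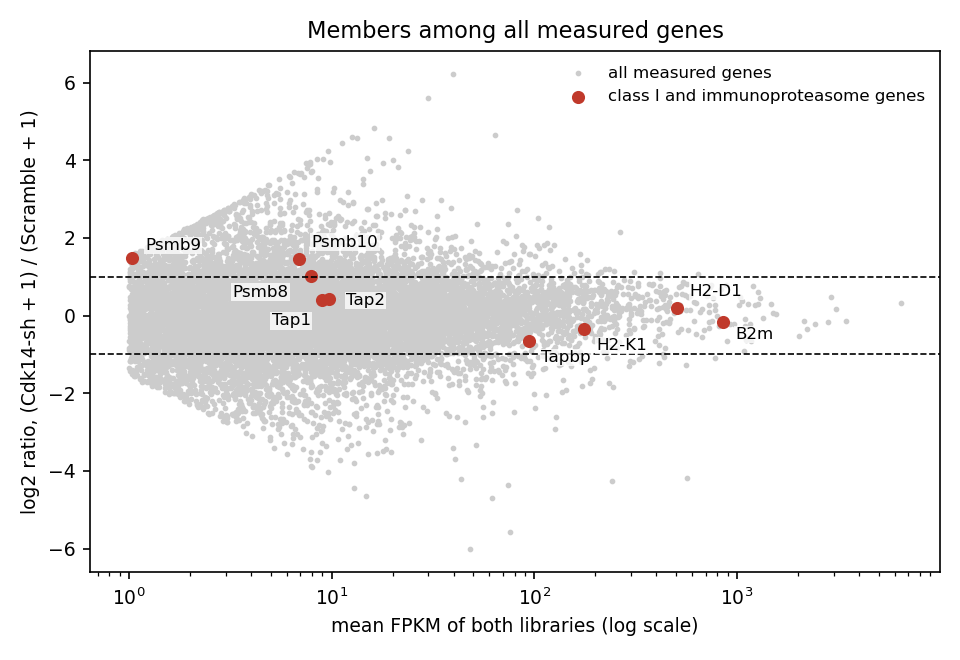
Log2 ratio of Cdk14-sh to Scramble control (1 FPKM added) against the mean FPKM of both libraries on a log axis, with 1 point per measured gene and the 9 members in red; dashed lines mark a 2-fold difference. Psmb9, Psmb10 and Psmb8 lie above the upper line at low means of 1.04 to 7.95 FPKM, and the abundant members lie near 0.

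The other proteasome genes looked at, which are not the whole of the proteasome, mostly differed by less than 2-fold. Of the 11 other core subunits, Psma1 to Psma7 and Psmb1 to Psmb4, none was 2-fold higher or lower, and their median log2 ratio was 0.10. Psma1, a structural subunit of the outer ring, was highest in log2 ratio at 28.8 FPKM in Scramble control and 42.8 FPKM in Cdk14-sh. Psma2 was lowest at 209 and 154 FPKM. Of 11 constitutive catalytic subunits, regulators and assembly factors, 1 was 2-fold lower and none higher, with a median of 0.16. For both lists, the shares of all measured genes were 14.2% higher and 13.5% lower. That gene was Psme4, the nuclear activator PA200, at 23.8 FPKM in Scramble control and 10.6 FPKM in Cdk14-sh, 2.25-fold lower (2.01 to 2.52). Psme1, a subunit of the interferon-induced activator PA28, measured 21.8 and 19.6 FPKM, with an interval of the fold that holds 1 (0.747 to 1.08). Its partner Psme2, named after its values were seen, measured 46.9 and 62.2 FPKM, a fold of 1.33 (1.17 to 1.51).

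Among 17 measured genes of peptide loading and trimming, 5 were at least 2-fold higher and 2 lower, with a median log2 ratio of 0.21. Of all measured genes, 14.2% were higher and 13.5% lower by this limit. Pdia3, the disulfide isomerase of the loading complex, measured 196 FPKM in Scramble control and 427 FPKM in Cdk14-sh, 2.17-fold higher (2.08 to 2.27). Uggt1, the glucosyltransferase that sends glycoproteins back for folding, measured 1.17 and 3.75 FPKM, 3.21-fold higher (2.47 to 4.20). Both serve glycoprotein folding in general as well as class I loading. Tapbpl, the peptide editor related to tapasin, measured 13.4 FPKM in Scramble control and 5.89 FPKM in Cdk14-sh. It was lower, as Tapbp was, by 2.27-fold (1.70 to 3.04). The cytosolic peptidase Lap3 measured 29.6 and 12.8 FPKM, 2.31-fold lower (1.95 to 2.74).

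Of 18 measured other class I and class I-like genes, 2 were at least 2-fold higher and 5 lower, with a median of -0.14, where 14.2% of all measured genes were higher and 13.5% lower. H2-Q6, a nonclassical heavy chain, measured 8.01 FPKM in Scramble control and 21.9 FPKM in Cdk14-sh, 2.74-fold higher (2.13 to 3.55). Cd1d1, which presents lipids, measured 0.458 and 7.34 FPKM, 16.02-fold higher (7.09 to 44.7). Cd1d1 passed the limit of a mean of 1 FPKM only through Cdk14-sh, so its place in the count of higher genes is no support. H2-T22, a nonclassical chain known as a ligand of gamma delta T cells, measured 12.5 FPKM in Scramble control and 3.66 FPKM in Cdk14-sh, 3.42-fold lower (2.57 to 4.59). Hfe, a class I-like protein of iron regulation, measured 4.73 and 0.990 FPKM, 4.77-fold lower (2.85 to 8.43). Hfe in turn passed that limit only through Scramble control. H2-Q6 and H2-T22 share sequence with H2-K1, and their levels are uncertain for that reason.

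Regulators of class I genes and interferon genes had negative median log2 ratios. The list of regulators mixes activators with repressors, so its median gives no direction for class I genes. A link of these lists to the immunosubunits was not tested. Of 22 measured regulators of class I genes, none was 2-fold higher and 6 were lower, with a median of -0.51. The shares of all measured genes were 14.2% higher and 13.5% lower. Prdm1, a repressor of interferon-induced genes, measured 13.7 FPKM in Scramble control and 2.11 FPKM in Cdk14-sh, 6.48-fold lower (4.92 to 8.65). Rfxank, a subunit of the factor that binds the X box, measured 2.70 and 4.85 FPKM, 1.80-fold higher (1.28 to 2.55). Nlrc5, the class I transactivator, and Irf1, an interferon-induced activator, were named after their values were seen. Nlrc5 measured 2.74 and 3.09 FPKM, a fold of 1.13 (0.874 to 1.46). Irf1 measured 34.0 FPKM in Scramble control and 16.5 FPKM in Cdk14-sh, 2.06-fold lower (1.81 to 2.36).

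Of 8 measured interferon receptor and signalling genes, 2 were at least 2-fold higher and 3 lower, with a median of -0.44. Jak2, a kinase of the interferon gamma receptor, measured 28.6 FPKM in Scramble control and 5.02 FPKM in Cdk14-sh, 5.70-fold lower (4.72 to 6.93). Socs1, an inhibitor of that receptor, measured 15.9 and 34.1 FPKM, 2.15-fold higher. Ptpn2, another gene of this list, measured 83.5 and 27.0 FPKM, 3.09-fold lower (2.77 to 3.46). The receptor gene Ifnar1 measured 7.61 and 18.2 FPKM, 2.39-fold higher (2.05 to 2.80). Of 20 measured interferon-stimulated genes, 3 were at least 2-fold higher and 8 lower, with a median of -0.50. For both lists, the shares of all measured genes were 14.2% higher and 13.5% lower. The interferon-induced GTPases Igtp and Iigp1 were at 34.6 and 25.3 FPKM in Scramble control and at 2.31 and 1.70 FPKM in Cdk14-sh, so they were 15.0-fold (9.89 to 23.8) and 14.9-fold lower (11.2 to 20.2). Gbp3, another GTPase of this kind, was higher, at 13.5 and 31.5 FPKM. The antiviral genes Ifit1 and Rsad2 were higher, at 13.5 and 14.9 FPKM in Cdk14-sh, from 4 and 2 reads in Scramble control. Both passed the limit of a mean of 1 FPKM only through Cdk14-sh. Their places in the count of higher genes are therefore no support.

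The class II genes, which serve presentation to CD4 T cells and are typical of antigen-presenting cells, were all higher in Cdk14-sh where measured. Of the list of 11, 4 were measured, and the other 7 were not among the genes of the deposited table. On the log2 scale with 1 FPKM added, 3 were at least 2-fold higher, against 14.2% of all measured genes. The median log2 ratio was 2.08. H2-DMa was just under the limit on that scale, at 0.94. H2-Aa and H2-Ab1, the chains of one class II molecule, measured 5.45 and 23.6 FPKM in Scramble control and 50.2 and 125 FPKM in Cdk14-sh. Their invariant chain Cd74 measured 49.0 and 175 FPKM, 3.57-fold higher (3.20 to 3.99). H2-DMa, a peptide exchange chain, measured 4.91 and 10.3 FPKM, 2.10-fold higher (1.62 to 2.75).

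The libraries also differed in markers of cell types other than basal cells. Of 13 macrophage and dendritic markers 5 were listed, with summed levels of 40.02 FPKM in Scramble control and 64.8 FPKM in Cdk14-sh. The other 8, among them Lyz2, Adgre1 and Itgax, were not among the genes of the deposited table, which lists no gene at 0. Csf1r, the receptor that defines this lineage, measured 1.04 and 4.23 FPKM, 4.05-fold higher (2.71 to 6.23). The more abundant Cd68 measured 25.8 and 32.0 FPKM, a fold of 1.24 (1.003 to 1.53). Cd14 measured 12.9 and 17.6 FPKM, a fold of 1.37 (1.06 to 1.76). C1qc and Fcer1g, with 4 and 0.5 reads in Scramble control, passed the limit of a mean of 1 FPKM only through Cdk14-sh. Of 12 leukocyte markers 4 were listed, with sums of 6.56 and 9.03 FPKM and a median log2 ratio of -0.47 over the 3 measured. Cd53 alone was higher, from 1 read in Scramble control to 5.53 FPKM in Cdk14-sh, and it too passed the limit only through Cdk14-sh. Coro1a measured 2.61 and 1.06 FPKM, Lcp1 3.41 and 2.19 FPKM, and Ptprc, the common leukocyte antigen, 0.482 and 0.247 FPKM. Of 12 endothelial markers 11 were listed, with sums of 314 and 83.9 FPKM. Of 9 fibroblast markers 6 were listed, with sums of 299 and 121 FPKM but a median log2 ratio of 1.02. Gsn and Dcn, which make up most of the sum, were lower, while Col1a1, Col1a2, Col3a1 and Fbln1 were higher. Of 11 luminal markers 10 were listed, with sums of 1323 and 840 FPKM but a median log2 ratio of 0.06 over the 6 measured. Krt8, Krt18 and Epcam were lower, and the other listed luminal markers, among them Krt19, Wfdc18 and Cd24a, were higher. All 11 basal markers were listed, with sums of 3153 and 2452 FPKM and a median of -0.18 over the 10 measured, Cnn1, Myh11 and Acta2 being lower and Trp63, Krt5 and Krt15 higher. Leukocytes and endothelial cells express class I and immunoproteasome genes as well, and the part of such cells in the differences of Psmb8, Psmb9, Psmb10 and Tapbp was not tested.

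**Figure D5:**
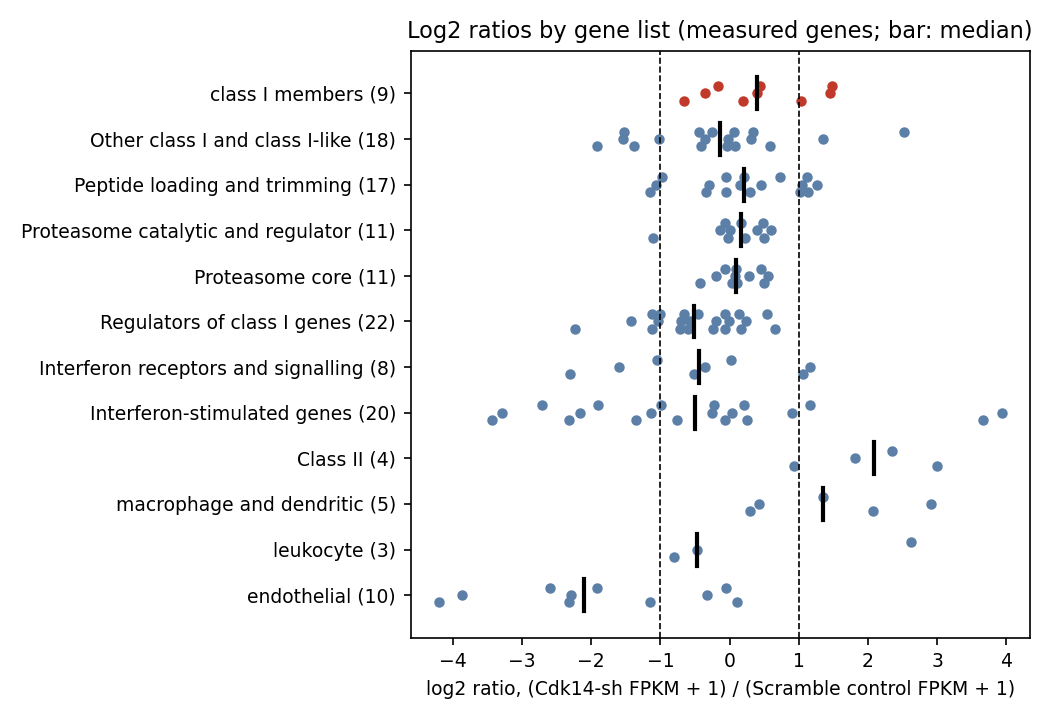
Log2 ratio of Cdk14-sh to Scramble control (1 FPKM added) for the measured genes of each list, with 1 point per gene, a bar at the median and the number of genes in parentheses; dashed lines mark a 2-fold difference. The class I members have a median of 0.39, the class II genes 2.08, the macrophage and dendritic markers 1.36 and the endothelial markers -2.11. Of the macrophage and dendritic markers, C1qc and Fcer1g counted as measured only through Cdk14-sh. In the other lists so did Psmb9, Cd1d1, Ifit1, Rsad2 and Cd53, among others.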

How the data were processed

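The authors deposited 1 table of FPKM values, with a column for each of 2 libraries, 1 per group. Column names abbreviate the sample titles and were matched to the only title each fits. Bowtie 0.12.2, Subread 1.5.1 with its counter featureCounts, and 2 builds, GRCm38 and mm8, are named per the submitters' processing notes, which give no role for either build. Treatment of multiply mapped reads and use of strand in counting are not given in the sources used here, which bears on H2-K1, H2-D1, Tapbp, Tap2 and Psmb8. The table lists no gene at 0, so genes found in 1 library alone are missing from the shares of all genes.

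The members, lists and rule for named genes were chosen with earlier results of these data known. Reads were recovered from FPKM and GENCODE exonic lengths on GRCm38. For 79.2% of genes the product was a multiple of a half-read step in both libraries (tolerance 0.01 reads), and recovered reads came to 112% of the totals. Each interval of a fold was made from the Clopper-Pearson interval (exact, 95%) of the fragments' share in 1 library, with 2 reads taken as 1 fragment. It covers counting error only, and since the sources used here mention no molecular identifiers, reads may not be independent molecules. Log2 ratios added 1 FPKM, and a gene counted as measured from a mean of 1 FPKM upward. Named genes were the 9 members, Cdk14, Psmb5 to Psmb7, and up to 3 highest and 3 lowest of each list; other genes named are marked, apart from Krt14, Ptprc and the markers given only by sums. One gene that the rule names is not reported here.

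Alternatives were pseudocounts of 0.1 and 5, 3 scalings, filters, fold limits of 1.5 and 4, and leaving out the heavy chains. No test was possible with 1 library per group. Interval and depth recovery were tested on simulated data, made of whole fragments of 2 reads with the same exonic lengths. That test built in these assumptions, so it could not check whether they hold for the deposited values. Python 3.11.15, numpy 2.4.6, pandas 2.3.3, scipy 1.17.1 and matplotlib 3.10.9 were used.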

Additional observations from a re-analysis of the deposited data

How the results depend on the processing

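Log2 ratios were recalculated under pseudocounts of 0.1 and 5 FPKM and under 3 scalings. A pseudocount cannot change the direction of a difference, so only the scalings could have done so. Each member kept its direction under the 3 scalings. Of all 45 recalculations, 38 stayed within the counting interval. Psmb9 depended most on the pseudocount, with a log2 ratio of 3.54 at 0.1 FPKM, 1.47 at 1 FPKM, 0.46 at 5 FPKM and 2.36 after rescaling both libraries to an equal sum (TPM). With a pseudocount of 5, or with a 4-fold limit, 0 members passed in place of the 3 immunosubunits. With a 1.5-fold limit 1 member, Tapbp, passed as lower. The median log2 ratio of the members ran from 0.28 to 0.44. Of all genes, 1828 were at least 2-fold higher and 1735 lower. These counts were 677 and 612 with a pseudocount of 5, 946 and 909 with the filter at 5 FPKM, 3239 and 3141 at 1.5-fold, and 419 and 345 at 4-fold. The median of all genes was moved by under 0.1 by each scaling. In the main setting, intervals left out 1 for 9 of 9 members. Taking each read as independent narrows the intervals, so the same count in that setting was fixed in advance. No paired analysis was possible because each group holds 1 library. Depth limits Psmb9 most, with 3 reads in Scramble control, and the lack of replicates limits every difference.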

Other observations

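Between the outer ends of Tapbp and H2-D1 on chromosome 17, 58 measured genes are not members. In Cdk14-sh 7 of them were higher by 2-fold or more and 6 were lower by as much, with a median log2 ratio of 0.19. The shares among all measured genes were 14.2% higher and 13.5% lower, so the neighbours did not stand out by these counts. The following were named after their values were seen. Brd2, a chromatin reader that lies between H2-K1 and Psmb9, measured 68.7 FPKM in Scramble control and 27.9 FPKM in Cdk14-sh, 2.46-fold lower (2.29 to 2.64). Rxrb, a nuclear receptor near H2-K1, measured 5.15 and 1.45 FPKM, 3.56-fold lower (2.34 to 5.56). Atf6b, a factor of the endoplasmic reticulum stress response, measured 2.71 and 17.9 FPKM, 6.61-fold higher (4.69 to 9.56). The heat shock genes Hspa1a and Hspa1b, which are near-identical copies, measured 192 and 81.0 FPKM in Scramble control and 80.4 and 28.5 FPKM in Cdk14-sh.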
